A study of Arabidopsis thaliana with 4 samples.

Results

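Gibberellin acts in plants largely through the removal of DELLA proteins, and the genes for these proteins, for the gibberellin receptors and for the F-box protein SLY1 were compared between fip1-2 and control seedlings of Arabidopsis thaliana. The 9 genes were taken by identifier from the 27654 genes in the file. They are 5 DELLA genes, GAI (AT1G14920), RGA (AT2G01570), RGL1 (AT1G66350), RGL2 (AT3G03450) and RGL3 (AT5G17490), 3 receptor genes, GID1A (AT3G05120), GID1B (AT3G63010) and GID1C (AT5G27320), and SLY1 (AT4G24210). The control line carried SKP2B::GUS, a reporter that puts the GUS enzyme under the SKP2B promoter. The other group was the mutant fip1-2, named for FIP1, a factor of the complex that cleaves and polyadenylates messenger RNA. Both were whole seedlings of the Columbia ecotype grown in Murashige and Skoog medium, with 2 libraries per group. The labels do not say whether fip1-2 carries the reporter, what kind of mutation it is, or whether replicates came from separate cultures, so p-values measure the spread between libraries, which may be technical.

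Without gibberellin, DELLA proteins sit in the nucleus, where they bind transcription factors and hold back germination, stem elongation and root growth. Gibberellin binds a GID1 receptor, the loaded receptor binds the N-terminal DELLA motif, and the F-box protein SLY1 then recruits the DELLA protein to a ubiquitin ligase that marks it for destruction. DELLA proteins also take part in feedback, in that they raise the transcripts of receptors and of enzymes that make gibberellin. The protein level is thus set largely by degradation, and transcript levels, the only quantity measured here, do not show it.

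The stretch that opens with the DELLA motif is shown for the 5 DELLA genes because it is what defines the family. It also shows how the coding sequences of the members differ there. Each line gives 14 codons of the coding sequence, 5′ to 3′ on the coding strand, from the RefSeq annotation of TAIR10.1, with the 5 codons of the motif in capitals.
GAI: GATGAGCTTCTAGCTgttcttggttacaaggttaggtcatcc
RGA: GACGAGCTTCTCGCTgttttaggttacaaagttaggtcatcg
RGL1: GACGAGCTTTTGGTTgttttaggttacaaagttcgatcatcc
RGL2: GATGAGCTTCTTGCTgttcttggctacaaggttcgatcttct
RGL3: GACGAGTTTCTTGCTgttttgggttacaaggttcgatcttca

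Over these 42 bases, RGA and RGL2 differed from GAI at 6 positions each and RGL1 and RGL3 at 9 each. Counted from 1 at the first base of the motif, RGL1 carries the change C14T and RGL3 the change C7T relative to GAI, and in each of these genes 1 of the 5 motif codons encodes another amino acid than in GAI. The substitutions in the motif codons of RGA and RGL2 do not change the amino acid. The closest pair over the whole coding sequence was GAI and RGA, identical at 82.6% of aligned bases, followed by RGL2 and RGL3 at 77.4%, and the 10 DELLA pairs ran from 66.7% to 82.6%. Among receptors, GID1A and GID1C were identical at 83.8% of aligned bases, and GID1B differed more from both, at 70.5% and 71.0%.

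The coding sequences of these copies share no long exact stretches. Untranslated parts were not compared, so this sets no limit for reads that lie there. The longest exact run shared by the coding sequences of GAI and RGA, the most abundant pair, has 30 bases and is printed here.
GAI and RGA: tttccggttaaccggaattggtccaccggc

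The longest run shared by GID1A and GID1C has 35 bases. No window of 50 bases in the coding sequence of any of the 9 genes recurs exactly in the coding sequence of another gene on either strand. The annotation places no other gene over any of the 9. The protocol gives no strand information, and this check cannot see reads of a neighbour that lie beyond its annotated end. The read length was not stated in the labels. The 5 DELLA genes and SLY1 are annotated with 1 exon and the 3 receptor genes with 2, each with 1 annotated transcript.

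The libraries held 20874114 to 21104606 reads assigned to genes. Values are the authors' normalised read counts, and of 19931 genes tested 53.8% passed at an adjusted p of 0.05, 27.0% being higher and 26.8% lower in fip1-2. FIP1 (AT5G58040) itself read higher in both mutant libraries, by 1.48 ± 0.05 SE on the log2 scale (limma adjusted p = 2.98e-11), or by 0.98 without the trend of fold changes on transcript length and base composition. A difference in so many genes means that passing the test sets no gene apart. Seedling markers were present in all libraries. Summed levels of 10 photosynthesis genes ran from 569571 to 571255 in control and from 752247 to 788451 in fip1-2. Those of 7 root hair genes ran from 2411 to 2429 and from 6469 to 8115. The sums hide differences between genes. Among the photosynthesis genes 7 rose, RBCS1B and RBCS2B fell and RBCS1A did not pass. Among the root hair genes 6 rose and RHD6 fell. A list of 10 seed storage and oil body genes summed to 254 and 64.1 in control and to 5221 and 1956 in fip1-2. Of the 8 that were tested, CRA1, CRC and PER1 had control means above the filter of 10 and rose. The other 5 entered the test only through their fip1-2 values, so their direction was fixed by the filter, and SESA4 had no read in any library. In whole seedlings, fewer cells of a type and less RNA per cell cannot be told apart.

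Of the 9 genes, all passed the filter on low values, 5 fell, 1 rose and 3 did not pass, against 26.8% of all genes tested lower and 27.0% higher. Their median log2 fold change was -0.21, beside -0.00428 over all genes tested. RGL1 and RGL3 stood apart in size. Their transcripts fell by more than 2-fold, while the other 7 genes differed by 1.5-fold or less between group means.

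**Figure D1:**
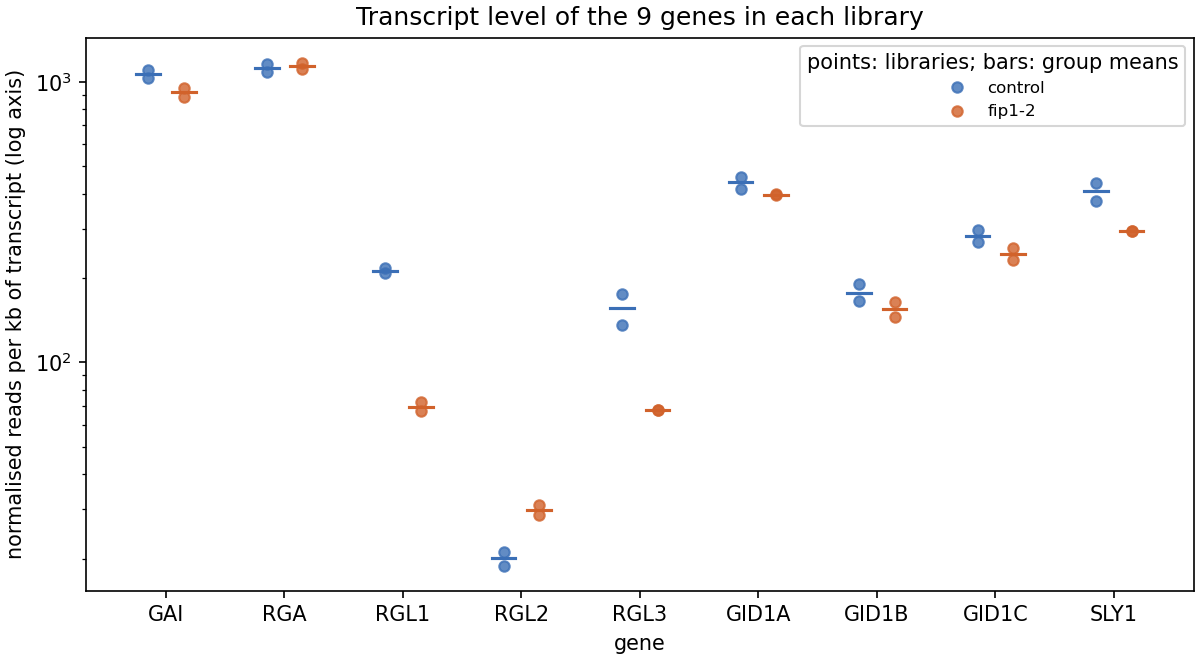
Normalised reads per kb of transcript (log axis) for the 9 genes, with a point for each library and a bar for each group mean, control in blue and fip1-2 in orange. RGL1 and RGL3 lie clearly lower in both fip1-2 libraries, RGA overlaps between groups, and RGL2 is the least abundant gene in every library.

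RGA, the DELLA gene with the leading role in stem and root elongation in Arabidopsis, stood at 2527 and 2696 in the control libraries and at 2586 and 2714 in the fip1-2 libraries. The groups overlapped. Its log2 fold change was 0.02 ± 0.05 SE (limma adjusted p = 0.760), with a 95% interval from -0.09 to 0.14. GAI, its closest relative, known from a dwarf gain-of-function mutant, stood at 2515 and 2683 in control and at 2157 and 2312 in fip1-2. Both fip1-2 libraries lay below both control libraries. GAI fell by 0.22 on the log2 scale (SE 0.06, limma adjusted p = 0.00438). Without fip1-2 replicate 1 the log2 fold change was -0.17 and did not pass (limma adjusted p = 0.0680), and it was -0.36 once the trend of fold changes on transcript length and base composition (GC) had been taken out.

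The proportion of GAI to RGA differed between the groups. In control libraries GAI and RGA were read equally often, with log2 ratios of GAI to RGA of -0.0066 and -0.0068. In the fip1-2 libraries the ratios were -0.26 and -0.23, outside the control range. An exact permutation test of 2 libraries against 2 cannot go below p = 0.333, which is the value obtained here, two-sided, and which applies to every ratio, sum and share given below without overlap between groups.

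RGL1, a DELLA gene known mostly from flowers and germinating seeds, showed the largest difference. It stood at 433 and 451 in control and at 139 and 150 in fip1-2 seedlings. The spread within each group was small beside the gap between them. RGL1 was 3.05-fold higher in control, a log2 fold change of -1.60 ± 0.10 SE (limma adjusted p = 8.66e-09). Only 1.01% of all genes tested had a lower log2 fold change, and RGL1 ranked 202 among the 5342 genes that fell. Over 15 alternative settings its log2 fold change ran from -1.66 to -1.54 and passed in each of them.

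RGL3, known in Arabidopsis for its part in jasmonate and defence responses, followed. It stood at 307 and 396 in control and at 153 and 153 in fip1-2. Its control libraries differed more from each other than those of RGL1, and both still lay above both fip1-2 libraries. RGL3 was 2.31-fold higher in control (log2 fold change -1.18 ± 0.12 SE, limma adjusted p = 1.43e-06). The log2 fold change ran from -1.51 without the length and GC trend to -1.001 when control replicate 2 was left out, and passed in each of 15 alternatives.

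RGL2, the main DELLA repressor of seed germination, was the only one of the 9 genes that passed as higher in fip1-2. It stood at 49.0 and 43.7 in control and at 71.7 and 66.4 in fip1-2, from 45 to 70 reads per library. The groups did not overlap, but the gene was weakly expressed throughout. RGL2 rose with a log2 fold change of 0.56 ± 0.19 SE (limma adjusted p = 0.0231). The call was lost in 5 of 15 alternatives, among them 3 of the 4 that left out 1 library (without control replicate 2, 0.48 and adjusted p = 0.108; without fip1-2 replicate 1, 0.50 and 0.114; without fip1-2 replicate 2, 0.61 and 0.0579). It was also lost with DESeq2 (adjusted p = 0.196), and without the length and GC trend, where the log2 fold change was 0.35. The seed markers given above were higher in the same libraries, and of the fip1-2 libraries replicate 1 was the higher in both. Their part in the RGL2 result was not tested.

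**Figure D2:**
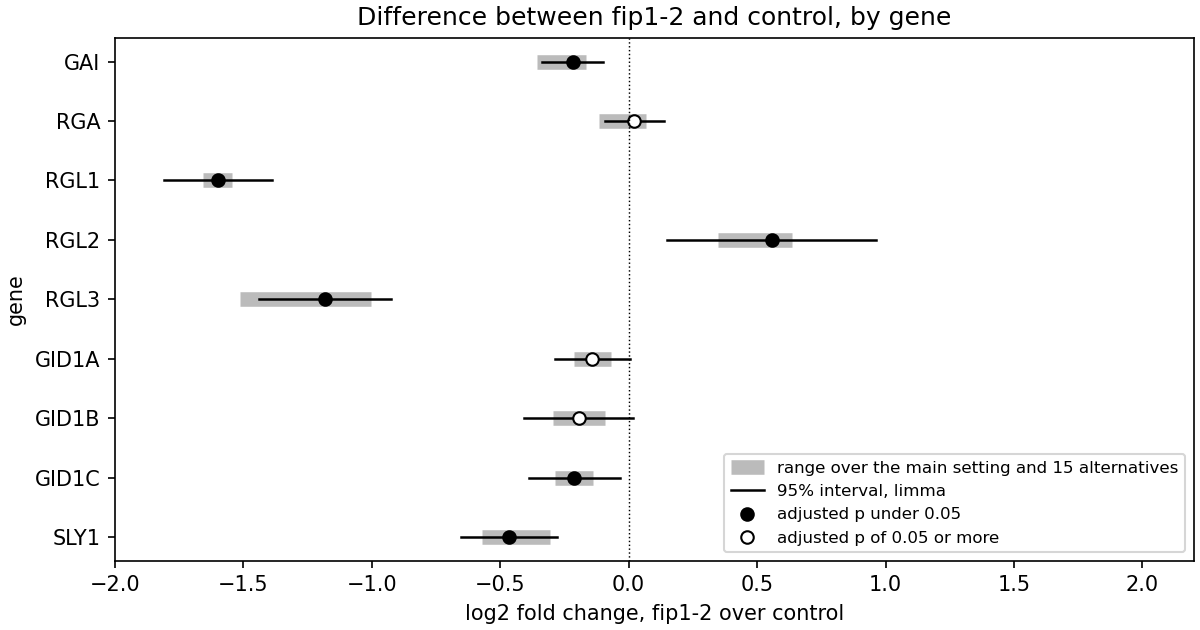
Log2 fold change of each of the 9 genes, fip1-2 over control, with its 95% interval from limma (line) and its range over the main setting and 15 alternatives (grey bar); filled points passed at an adjusted p of 0.05. RGL1 at -1.60 and RGL3 at -1.18 lie far from 0, and the range of RGA spans 0.

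Level was compared between genes per kb of annotated transcript. The design text of the series names sequencing of poly(A) tags, whereas the extract protocol describes fragmented mRNA. If reads were tags, counts would not grow with length and the order per kb would not apply. The DELLA transcripts are of like length, 2082 to 2434 bases, so their order depends little on it. In control, RGA (1125 ± 51.4 normalised reads per kb, SD, n = 2) and GAI (1068 ± 48.7) led, and their library values overlapped. GID1A (438 ± 30.3) and SLY1 (407 ± 41.5) came next and overlapped as well, ahead of GID1C (283 ± 20.2) and RGL1 (212 ± 6.13). GID1B (177 ± 17.7) and RGL3 (156 ± 27.7) overlapped, and RGL2 (20.01 ± 1.62) was last. In fip1-2 the order was the same except that RGL1 (69.6 ± 3.80) was below GID1B (155 ± 13.6). RGL1 then overlapped with RGL3 (67.6 ± 0.021), and RGA (1141 ± 39.1) was clear of GAI (918 ± 45.0).

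The make-up of the DELLA family moved toward RGA. RGA made up 43.8% and 43.4% of the summed DELLA level per kb in the control libraries and 51.4% and 51.1% in those of fip1-2. The share of GAI stayed within 40.9% to 41.6% in all 4 libraries and overlapped between groups. RGL1, RGL2 and RGL3 together went from 14.7% and 15.4% to 7.64% and 7.37%. Within that part RGL1 fell behind most, from 8.37% and 8.11% to 3.09% and 3.16%, and RGL3 went from 5.47% and 6.56% to 3.12% and 2.95%. The summed DELLA level was 5832 and 6270 normalised counts in control and 5106 and 5396 in fip1-2. This is a ratio of 0.868 between group means without overlap between libraries.

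**Figure D3:**
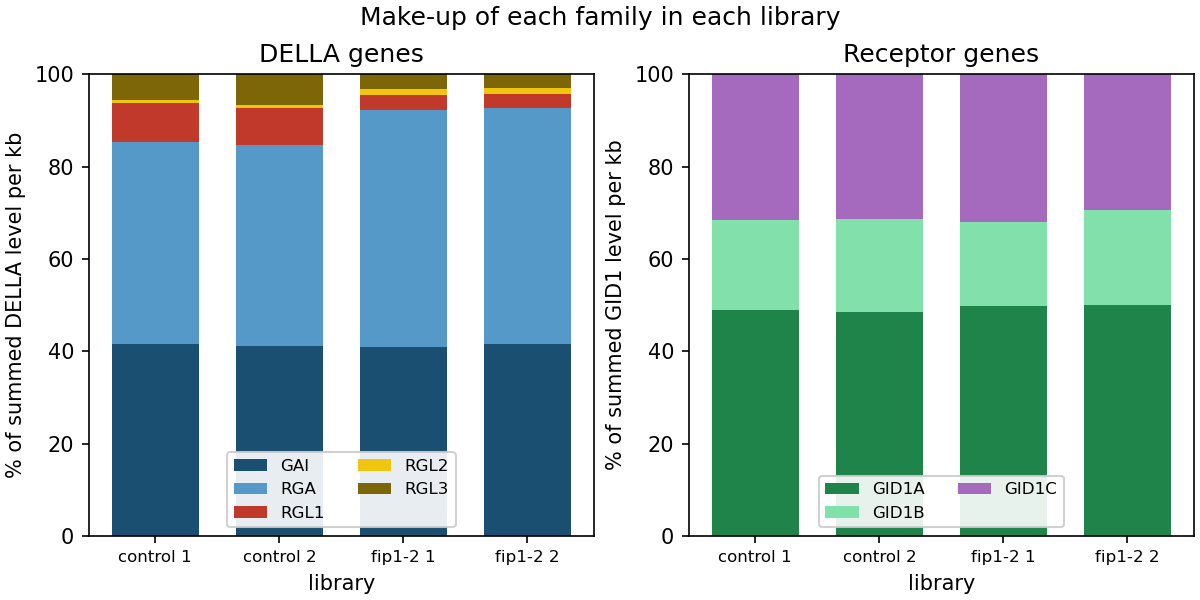
Share of each gene in the summed level per kb of its family, in percent, for the 5 DELLA genes (left) and the 3 receptor genes (right) in each library. RGA takes 43.4% to 43.8% of the DELLA level in control and 51.1% to 51.4% in fip1-2, while GID1A holds 48.5% to 49.9% of the receptor level throughout.

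The receptors showed small differences in the same direction. GID1A, the receptor with the largest part in stem elongation in Arabidopsis, stood at 797 and 879 in control and at 763 and 756 in fip1-2. The fip1-2 libraries lay below the control libraries, and the log2 fold change of -0.14 ± 0.07 SE did not pass (limma adjusted p = 0.0923), with a 95% interval from -0.29 to 0.0036. GID1B, the receptor with the highest affinity for gibberellin, stood at 336 and 387 in control and at 296 and 335 in fip1-2. It did not pass either (log2 fold change -0.19 ± 0.10 SE, limma adjusted p = 0.110), with an interval from -0.41 to 0.02. The log2 fold changes of GID1A and GID1B were -0.21 and -0.30 without control replicate 1, but -0.070 and -0.094 without control replicate 2. GID1B passed without the length and GC trend, at -0.27 (limma adjusted p = 0.0346).

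GID1C stood at 496 and 548 in control and at 473 and 428 in fip1-2, again without overlap. Its fall of the same small size passed (log2 fold change -0.21 ± 0.08 SE, limma adjusted p = 0.0425). The call was lost in 5 of 15 alternatives, and without control replicate 2 or without fip1-2 replicate 2 the log2 fold change was -0.14 (limma adjusted p = 0.250 and 0.280). The 3 receptors summed to 1629 and 1815 in control and to 1532 and 1518 in fip1-2. Without control replicate 2 the log2 ratio of summed levels, -0.18, was -0.10. The make-up of the receptor family varied little, and the shares of GID1B and GID1C overlapped between groups. That of GID1A did not overlap, at 49.0% and 48.5% in control and 49.8% and 49.9% in fip1-2. Per kb, the receptors together stood at 0.342 and 0.354 of the summed DELLA level in control and at 0.370 and 0.346 in fip1-2, which overlap.

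SLY1, the F-box subunit that selects DELLA proteins for ubiquitination, stood at 454 and 525 in control and at 353 and 353 in fip1-2. Both fip1-2 libraries were lower. SLY1 fell with a log2 fold change of -0.47 ± 0.09 SE (limma adjusted p = 0.000399) and passed in each of 15 alternatives, from -0.57 without control replicate 1 to -0.31 without the length and GC trend. Its transcript, at 1204 bases, is the shortest of the 9, and the 1550 genes tested of like length had a median of -0.14. Relative to the summed DELLA level per kb, SLY1 stood at 0.152 and 0.163 in control and at 0.136 and 0.128 in fip1-2.

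Other genes of the pathway moved in both directions, and the share that passed in most lists lay near or above the background of 53.8%. Of 29 partners and modifiers of DELLA proteins 27 could be tested: 9 rose, 9 fell and 9 missed the threshold, at a median log2 fold change of 0.0013. The even split depended on the setting. Without the length and GC trend 3 of the 27 rose and 10 fell, beside 4342 higher and 5635 lower of all 19819 genes in that fit. SEC, an enzyme that attaches O-GlcNAc to RGA and weakens its action, rose from 1696 ± 161 to 3423 ± 52.1 (log2 fold change 1.02). Over 15 alternatives the log2 fold change of SEC ran from 0.73 to 1.11. PIF4, a growth-promoting transcription factor held by DELLA proteins, rose from 2724 ± 86.0 to 4351 ± 75.2. ASK1 (annotated as SKP1), the adaptor that links SLY1 to its ubiquitin ligase, fell from 2782 ± 50.2 to 1710 ± 113, and BRG3, of the BOI group of DELLA partners, from 1449 ± 82.9 to 952 ± 75.0. These 4 passed limma's test at adjusted p = 3.39e-06 or less.

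More gibberellin synthesis genes rose than fell, against 27.0% of all genes tested higher and 26.8% lower. Of 14 listed, 10 were abundant enough to test; 6 rose, GA20OX1 fell and 3 missed the threshold (median 0.29). KAO1 (annotated as CYP88A3) and KAO2, oxidases of the middle steps, rose from 235 ± 9.22 to 367 ± 8.27 and from 572 ± 32.0 to 729 ± 17.3. GA20OX2, of the late steps, rose from 59.9 ± 6.39 to 112 ± 22.2. GA20OX5 had no read in control and stood at 31.8 and 19.7 in fip1-2, at least 8.88-fold higher if each control library is set to a floor of 3 reads. Only its fip1-2 values took it past the filter, which fixed its direction, so that 5 rises among 9 tested genes remain without it. With DESeq2 5 of the 10 rose and 0 fell. GA20OX5 passed in each of the 14 alternatives that tested it, so it is among these 5 too. With GA20OX5 at its bound the list median was again 0.29. It could not have moved, because GA20OX5 remained the highest value of the list. GA20OX1, chosen for mention after its value was seen, went from 166 ± 21.3 to 123 ± 6.97 (log2 fold change -0.42, limma adjusted p = 0.0163) and lost its call in 3 alternatives. They were DESeq2 and those without control replicate 1 (-0.29) and without fip1-2 replicate 1 (-0.36).

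Of 11 genes that inactivate gibberellin, 7 were tested, of which 2 fell and 5 missed the threshold (median -0.30). The share that fell, 28.6%, was near the 26.8% of all genes tested that were lower. The number that rose was 0 by limma, DESeq2 and edgeR, and at an unadjusted p of 0.05 by limma also 0. Over all genes tested 27.0% were higher, and 53.8% passed in either direction. GA2OX6, a gibberellin 2-oxidase, fell from 367 ± 63.4 to 172 ± 3.52 (log2 fold change -1.08, limma adjusted p = 2.69e-06). GA2OX8, from 58.5 ± 10.7 to 35.6 ± 3.97, passed at adjusted p = 0.0178 and lost its call in 4 alternatives, including those without control replicate 2 and without fip1-2 replicate 1. GA2OX2 stood at 120 ± 28.9 and 95.9 ± 8.18 and CYP714A2 at 14.4 ± 10.8 and 8.24 ± 1.38 in control and fip1-2, and neither passed. Without control replicate 1 GA2OX2 passed, at -0.55 (limma adjusted p = 0.0132), but without control replicate 2 it was at -0.060 (0.837). CYP714A2 passed without control replicate 2, at -1.24 (0.0301), and turned direction without control replicate 1, at 0.21 (0.788). A list this short moved with single settings, and 1 to 3 of its genes passed when 1 library was left out.

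Early targets that DELLA proteins are known to induce were divided. Of 11 outside the 9 genes, 10 were tested, and 4 rose, 4 fell and 2 missed the threshold (median -0.11). Thus 80% passed, beside 53.8% of all genes tested. GA20OX2 and GA3OX1, enzymes of gibberellin synthesis under feedback, were among the rises, GA3OX1 from 128 ± 7.26 to 195 ± 17.1. AT5G50915, annotated as a basic helix-loop-helix factor, rose from 51.2 ± 5.09 to 109 ± 1.18, and IQD22 fell from 420 ± 29.0 to 318 ± 5.85. The log2 fold change of IQD22, -0.40, moved to -0.63 without the length and GC trend. SCL3, a GRAS protein that works against DELLA proteins and is itself induced by them, was chosen for mention after its value was seen. Its control mean of 397 ± 4.24 compared with 328 ± 26.4 in fip1-2 (limma adjusted p = 0.0158) and lost its call with DESeq2 and without fip1-2 replicate 1 (-0.19). With DESeq2 4 targets rose and 1 fell.

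The GASA family, small cysteine-rich peptides of which several respond to gibberellin, was divided as well. Of 15, 9 were tested, and 4 rose, 3 fell and 2 missed the threshold (median -0.04). Thus 77.8% passed, beside 53.8% of all genes tested. AT1G22690, listed in the GASA family and annotated as gibberellin-regulated, fell from 637 ± 165 to 119 ± 15.7 and GASA1 from 3588 ± 209 to 1769 ± 205. GASA14 rose from 12607 ± 317 to 21967 ± 930 and GASA6 from 4449 ± 203 to 6596 ± 83.6. The log2 fold change of GASA6, 0.57, moved to 0.88 without the length and GC trend. GASA3, named after its values were seen, is among the 4 rises but entered the test only through its fip1-2 values. It had 2 reads over both control libraries and 107 over both fip1-2 libraries, a ratio of 57.0 with an exact counting interval from 15.4 to 478.

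**Figure D4:**
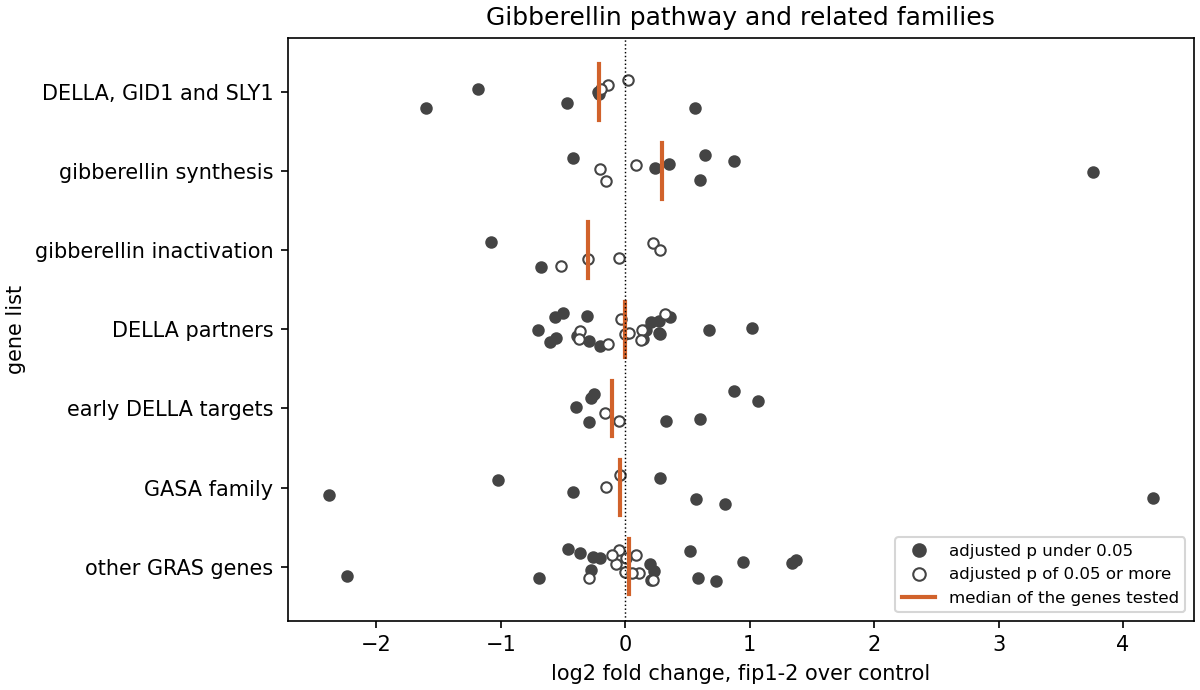
Log2 fold change, fip1-2 over control, of each gene tested in the 9-gene group and in 6 lists of related genes; filled points passed at an adjusted p of 0.05 and the orange line is the median of each list. The medians run from -0.30 (inactivation) to 0.29 (synthesis), and the points beyond 3 are GA20OX5 and GASA3, which had 0 and 2 reads in the control libraries, so that their fitted values depend on the pseudocount.

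DELLA proteins belong to the larger GRAS family of transcription regulators, and RGL1 and RGL3 can be set beside its other members. Of 27 other GRAS genes 26 were tested, and 9 rose, 7 fell and 10 missed the threshold (median 0.03). Thus 61.5% passed, beside 53.8% of all genes tested. Without the length and GC trend 6 rose and 10 fell. AT3G13840, annotated as a GRAS transcription factor, was the one listed GRAS gene with a lower log2 fold change than RGL1, at -2.24, from 110 ± 36.1 to 21.1 ± 2.38. SHR and SCR, which pattern the root ground tissue, rose from 364 ± 37.5 to 923 ± 52.3 and from 579 ± 20.6 to 873 ± 55.4, and SCL6 (annotated as HAM3), a meristem regulator, from 479 ± 11.6 to 924 ± 24.6. Without the length and GC trend the log2 fold change of SCR was 0.38 in place of 0.59 and that of SCL6 0.55 in place of 0.95.

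Over the 4 libraries the genes with the pattern most like RGL1, by root mean square distance of centred log2 values, were AT2G37130, annotated as a peroxidase (0.027), ESM1 (0.041) and EXLA1 (0.055). Those most like RGA were AT5G20610, AT5G13950 and TSO1, each at 0.0083 or less. Of 15179 genes compared, 908 lay within 0.05 of RGA and 2 within 0.05 of RGL1, so being near RGA distinguishes a gene little. Likeness over 4 libraries in 2 groups reflects mainly the difference between the groups.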

How the data were processed

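Per the file headers, reads were counted per gene with htseq-count; the submitters' processing notes name CASAVA 1.4, FastQC, HISAT2, HTSeq and edgeR without role or order, but give neither build nor counting options. The deposited values are a signal per gene, normalised read counts that the authors scaled by a single factor for each library, as the values show. Every value (100%, within 1e-06) was a whole multiple of the smallest value above 0 in its column, so whole reads were recovered.

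Genes with a mean of at least 10 entered limma 3.58.1 (R 4.3.3) as log2(value + 2) (variance trend, genotype only, two-sided, Benjamini-Hochberg over 19931 genes, threshold 0.05). Fold changes are on that scale, which understates changes of weak genes. edgeR 4.0.16 (TMM, quasi-likelihood) on the recovered reads called 10731 genes, 10670 shared with limma's 10726. DESeq2 1.42.0 was a further alternative. A chi-square of 3.03 (control) and 2.79 (fip1-2) per gene put replicates beyond sampling noise of each other. The fit counts each library once, and the chi-square cannot show whether replicates came from separate cultures. Depth and the spread between 2 libraries limit precision, with a median SE of 0.094 for a log2 fold change.

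Names, transcript lengths and sequences come from the RefSeq annotation of TAIR10.1, which holds 99.2% of the identifiers; no coordinates are given. Coding sequences were aligned with Biopython 1.88. The members, the lists and the tests were chosen with earlier results of these data known. Named genes are the 9 members, FIP1, SKP2B, up to 4 genes per list with the smallest p, and the 3 nearest patterns to the most abundant and the most changed member; others are marked as chosen later. SKP2B did not pass (log2 fold change 0.05, limma adjusted p = 0.716). Bounds cover counting error only.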

Additional observations from a re-analysis of the deposited data

How the results depend on the processing

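Over 15 alternatives the calls of RGL1, RGL3 and SLY1 held, and RGA did not pass in any. GID1C did not pass without the filter on low values (-0.21, limma adjusted p = 0.0894), after quantile normalization (-0.21, 0.0522) or with DESeq2 (-0.21, 0.224). With DESeq2 RGL2 stood at 0.58 (0.196), and 1 inactivation gene and 5 early targets passed. Without the length and GC trend the log2 fold change was 0.35 for RGL2 (0.156) and -0.27 for GID1B, the summed DELLA level was at -0.35 in place of -0.20, and 1 inactivation gene passed, as with a filter at a mean of 50. That alternative also gave -0.25 for AT5G20610 and for AT5G13950, which otherwise did not pass, and -0.11 for RGA. Each such shift is by construction the fitted trend at that gene, 0.136 for RGA, taken off the fip1-2 values. The cause of the trend was not tested.

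Leaving out 1 library gave ranges of -0.27 to -0.17 for GAI, 0.48 to 0.64 for RGL2, -0.21 to -0.070 for GID1A, -0.30 to -0.094 for GID1B, -0.29 to -0.14 for GID1C and -0.25 to -0.10 for the summed receptors, and 1 to 3 inactivation genes; 4 to 8 of the 9 genes passed. A group of 1 library is assumed to vary like the other group, and in 2 of the 4 such fits limma took the spread from the trend over all genes alone. The replicate block called 11004 genes in place of 10726 and the same number of the 9 genes, 6. Same-numbered libraries did not deviate together across 15180 genes taken as a whole (correlation 0.0168). A single correlation over all genes cannot show whether they share more than a number. Genes with few reads, RGL2 among them, are limited by depth.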
